A study of Mus musculus with 6 samples.

Results

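The genes that carry the extracellular part of Wnt signaling were followed between an early passage line of mouse ovarian surface epithelial cells, M0505, and STOSE, the line that arose from it by spontaneous transformation in long-term culture. They were chosen by gene symbol, as all *Wnt*, *Fzd*, *Sfrp* and *Dkk1* to *Dkk4* genes plus *Frzb*, *Wif1*, *Lrp5*, *Lrp6*, *Ror1*, *Ror2*, *Ryk*, *Porcn*, *Gpr177* (the older symbol of *Wls*), *Sostdc1* and *Cer1*. The deposited table held 48 of them among 20405 genes, and each of the 48 was read by 1 probe set. They comprise 19 Wnt ligands, 2 genes of ligand secretion, 10 Frizzled receptors, 2 Lrp co-receptors, 3 kinase-like receptors and 12 secreted antagonists.

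Wnt proteins are secreted signals that carry a lipid, which Porcn attaches, and Wls (Gpr177) ferries them to the cell surface. There they bind Frizzled receptors, and binding together with Lrp5 or Lrp6 stabilizes β-catenin, which acts with Tcf and Lef factors on transcription. Ror1, Ror2 and Ryk are alternative receptors that act largely without β-catenin. Secreted frizzled-related proteins (the *Sfrp* genes and *Frzb*) and Wif1 bind Wnt proteins outside the cell, whereas Dkk1, Dkk2, Dkk4 and Sostdc1 bind the Lrp co-receptors. Cer1 is known in the mouse mainly as an inhibitor of Nodal and BMP signals. In the ovary the pathway is known for its part in female gonad development, in which *Wnt4* and the R-spondin gene *Rspo1* act, and in the follicle and corpus luteum.

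Both lines come from FVB/N mice, the labels give ovarian surface epithelium as the tissue, and both were grown in the same medium, which contained serum and epidermal growth factor. Total RNA from 3 samples of M0505 cells and 3 of STOSE cells, labelled as biological replicates, was read on Mouse Gene 1.0 ST arrays of Affymetrix, which carry probes along whole transcripts. Each group is a single cell line, so a difference is one between these lines, and passage and transformation cannot be told apart. Values are log2 expression values after robust multi-array averaging (RMA), and a log2 fold change is the STOSE mean minus the M0505 mean. A gene was called higher or lower at a limma adjusted p under 0.05 with at least a 2-fold difference. A log2 value of 4.74, below which 95% of the single-array values of olfactory receptor probe sets lay, served as a mark of background. In RNA from whole cultures, fewer expressing cells and less RNA per cell cannot be told apart.

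Of 12 ovarian surface epithelium markers on the array, 11 had a mean above the background mark in both lines. *Cdh1*, 1 of these, lay only just above it, at log2 means of 4.79 in M0505 and 4.82 in STOSE cells. The uroplakin gene *Upk3b*, a mesothelial marker, had log2 means of 12.25 and 11.91 in M0505 and STOSE cells. Of the 12, 4 were called lower and 0 higher, against 7.59% and 4.9% of all genes. These were the keratin genes *Krt19*, which fell from 11.17 to 5.61, *Krt8* (log2 fold change −4.55) and *Krt7* (−1.03), and *Gata4* (−1.38). At the limma adjusted p alone 8 were lower and 1 higher (24.8% and 31.6% of all genes). The mean log2 level over the 12 markers ran from 9.79 to 9.87 in M0505 arrays and from 8.59 to 8.70 in STOSE arrays. Among markers of other cell types, means lay under the mark in both lines for 2 of 5 granulosa and 3 of 4 steroidogenic markers. The same held for 2 of 5 endothelial and 3 of 5 leukocyte markers. *Ptprc* of leukocytes, *Emcn* of endothelium and *Cyp19a1* of granulosa cells were among them. *Foxl2* (granulosa) lay above the mark in both lines at 6.76 and 6.39, as did *Cd3e* (leukocyte), *Cdh5* and *Tek* (endothelium), nearer to it. *Inha* (granulosa), *Kdr* (endothelium), *Cd68* (leukocyte) and *Star* (steroidogenic) had M0505 log2 means of 9.61, 9.58, 9.78 and 11.34. They fell in STOSE cells, with log2 fold changes of −3.93, −5.17, −2.82 and −5.97, *Kdr* to under the mark and at least 28.6-fold. Each was the 1 gene called in its list, against 7.59% of all genes called lower. Of 6 fibroblast markers 1 was called higher (*Thy1*, 1.49) and 1 lower (*Col1a2*, −2.45), against 4.9% and 7.59% of all genes. At the adjusted p alone 4 were higher, among them *Col1a1* (0.95) and *Pdgfra* (0.84), and 2 lower (31.6% and 24.8% of all genes). The mean log2 level of the list ran from 8.13 to 8.23 in M0505 arrays and from 8.27 to 8.33 in STOSE arrays. Of 3 smooth muscle markers 1 was called higher (*Acta2*, 2.33) and 0 lower, against 4.9% and 7.59% of all genes. At the adjusted p alone 1 was higher and 1 lower (*Des*, −0.54), against 31.6% and 24.8% of all genes. *Myh11* differed by 0.04. The mean log2 level of these markers ran from 6.69 to 6.88 in M0505 arrays and from 7.37 to 7.42 in STOSE arrays. The part of such cells in the Wnt results was not tested.

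Of the 48 genes, 13 were called lower and 2 higher in STOSE cells, against 7.59% lower and 4.9% higher among all genes. The 13 lower genes were 27.1% of the 48 and the 2 higher genes 4.17%. The lower genes were the ligands *Wnt2*, *Wnt2b*, *Wnt10a*, *Wnt6*, *Wnt9a* and *Wnt5a*, the receptors *Fzd3*, *Fzd4*, *Fzd10* and *Fzd2*, and the antagonists *Sfrp1*, *Frzb* and *Sfrp4*. The higher genes were the ligand *Wnt11* and the receptor *Ror1*. The median log2 fold change of the 48 genes was −0.15 against 0.08 over all genes, and the median of its size was 0.37 against 0.25. Without the fold criterion, 34 of the 48 met the adjusted p (70.8%, against 56.5% of all genes), 21 of them lower (24.8% of all genes) and 13 higher (31.6%). For 35 of the 48 genes the arrays of the lines did not overlap (64.6% of all genes). The STOSE arrays lay wholly below the M0505 arrays for 21 of the 48 genes (27% of all genes) and wholly above for 14 (37.6%).

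**Figure D1:**
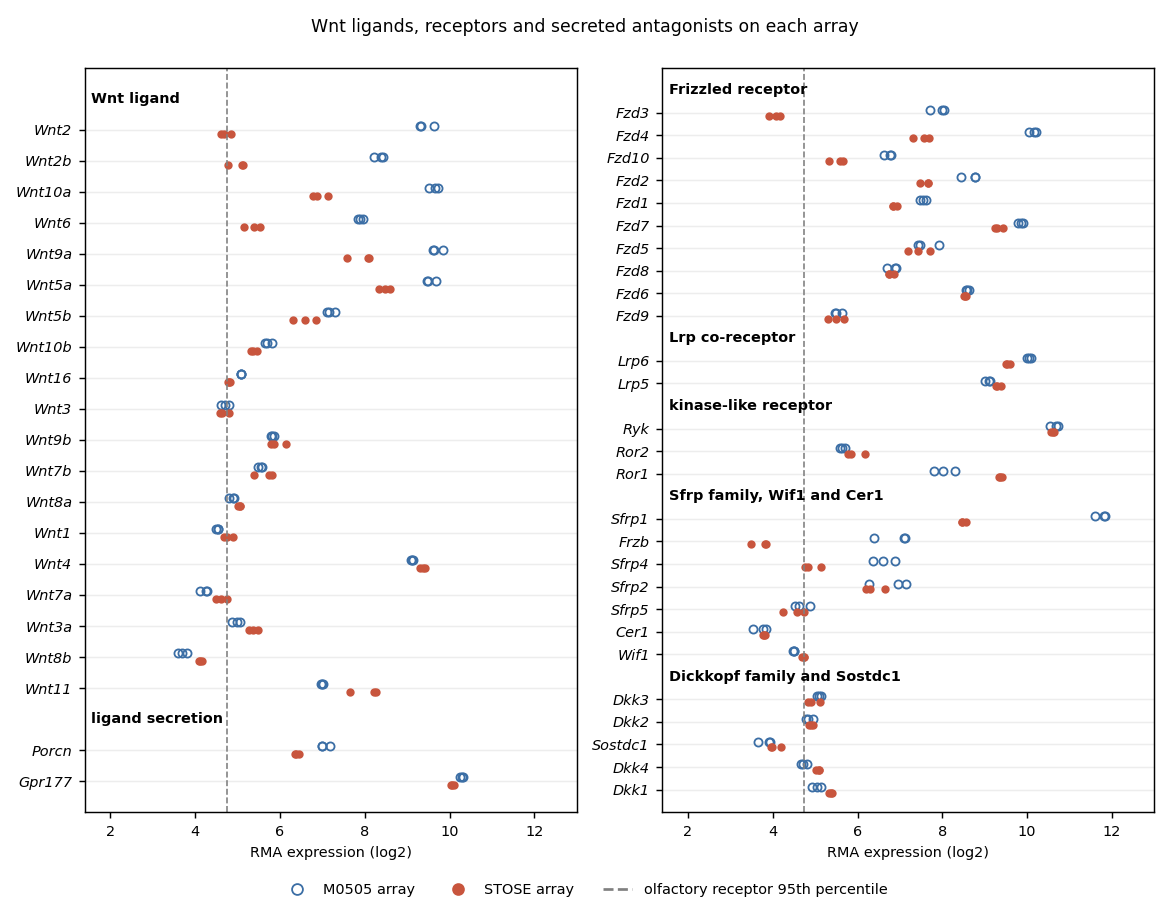
Log2 RMA value of each of the 48 genes on each array, with open circles for the 3 M0505 arrays and filled circles for the 3 STOSE arrays, grouped by role. The dashed line is the olfactory receptor 95th percentile of 4.74, and the STOSE circles of *Wnt2*, *Fzd3* and *Frzb* lie around or left of it while their M0505 circles lie to its right.

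Among the 19 ligand genes, *Wnt2*, whose product is a ligand of the β-catenin branch, differed most. Its log2 values were 9.62, 9.30 and 9.32 on the M0505 arrays and 4.62, 4.84 and 4.68 on the STOSE arrays. All M0505 arrays were thus far above the STOSE arrays, whose mean of 4.71 lay under the background mark. The log2 fold change was −4.70 (standard error 0.10, limma adjusted p = 1.06e-08). With values under the mark raised to it, the fall was at least 24.9-fold.

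*Wnt2b*, the closest relative of *Wnt2* in the family, read 8.21, 8.43 and 8.39 on the log2 scale in M0505 cells and 4.78, 5.14 and 5.11 in STOSE cells. The STOSE arrays were just above the background mark and did not overlap the M0505 arrays. The log2 fold change was −3.33 (standard error 0.11, adjusted p = 8.27e-08), a 10.1-fold fall.

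*Wnt6* and *Wnt10a* are neighbours on chromosome 1, with no other protein-coding gene between them in RefSeq, and both fell by similar amounts. *Wnt6* had log2 values of 7.88, 7.84 and 7.97 in M0505 cells against 5.14, 5.52 and 5.38 in STOSE cells, a log2 fold change of −2.55 (standard error 0.10, adjusted p = 2.25e-07). *Wnt10a* had 9.72, 9.64 and 9.51 against 7.13, 6.87 and 6.78, a log2 fold change of −2.70 (standard error 0.10, adjusted p = 1.92e-07). The lines did not overlap for either gene, and *Wnt10a*, unlike *Wnt6*, kept a STOSE mean (6.93) well above the mark. The median log2 fold change of all 1144 chromosome 1 genes was 0.10.

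In the other 3 neighbouring pairs at most 1 gene was called. *Wnt9a*, on chromosome 11, read 9.84, 9.62 and 9.60 in M0505 cells and 7.59, 8.08 and 8.09 in STOSE cells on the log2 scale. The lowest STOSE array was replicate 1, and no array overlapped. Its log2 fold change was −1.77 (standard error 0.14, adjusted p = 1.12e-05). *Wnt3a*, its neighbour, lay near the mark at a mean log2 value of 4.96 in M0505 cells and 5.37 in STOSE cells, and its log2 fold change of 0.41 was under 2-fold. For *Wnt9b* and *Wnt3*, also on chromosome 11, the log2 fold changes were 0.11 and −0.03 with overlapping arrays, and for *Wnt10b* and *Wnt1* on chromosome 15 they were −0.34 and 0.25.

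*Wnt5a*, known mainly for signaling through Ror and Ryk receptors without β-catenin, read 9.46, 9.68 and 9.48 in M0505 cells and 8.59, 8.46 and 8.34 in STOSE cells. Its arrays did not overlap, yet the log2 fold change of −1.08 (standard error 0.09, adjusted p = 1.46e-05) lay close to 2-fold and was −0.88 with the arrays centred on their medians. Its relative *Wnt5b* differed in the same direction by −0.60 (standard error 0.13, adjusted p = 0.00419) and did not reach 2-fold.

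*Wnt11*, another ligand tied to signaling without β-catenin, was the ligand called higher. It read 6.96, 7.01 and 6.98 in M0505 cells and 7.66, 8.27 and 8.2 in STOSE cells on the log2 scale. The M0505 arrays agreed closely, and the STOSE arrays all lay above them with replicate 1 the lowest. The log2 fold change was 1.06 (standard error 0.15, adjusted p = 0.000335), and it was under 2-fold without STOSE replicate 2 (0.95) or without STOSE replicate 3 (0.98).

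*Wnt4*, the ligand of ovarian development, was expressed in both lines, at log2 values of 9.14, 9.12 and 9.10 in M0505 cells and 9.43, 9.38 and 9.31 in STOSE cells. The STOSE arrays were all slightly higher, by a log2 fold change of 0.25 (95% interval 0.12 to 0.39, adjusted p = 0.00589). The remaining 8 ligands, *Wnt1*, *Wnt3*, *Wnt7a*, *Wnt7b*, *Wnt8a*, *Wnt8b*, *Wnt9b* and *Wnt16*, were not called and had log2 fold changes from −0.28 to 0.42. Of these, *Wnt3*, *Wnt7a* and *Wnt8b* had means under the mark in both lines. Over all 19 ligands, 15 had a mean above the mark in M0505 cells and 15 in STOSE cells, with *Wnt2* above it only in M0505 cells and *Wnt1* only in STOSE cells. *Wnt1* passed the mark narrowly, at a STOSE mean of 4.78 with STOSE replicate 2 (4.69) under it.

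To show the control regions of the ligands that were called, the 250 bases before the transcript start were taken from RefSeq on assembly GRCm38.p6. The table matched 32 of the 48 genes, and among the 7 called ligands it held *Wnt2*, *Wnt2b*, *Wnt6*, *Wnt9a* and *Wnt11* but not *Wnt5a* or *Wnt10a*. Each sequence runs 5′ to 3′ on the strand of its gene, with every CG dinucleotide in capitals. For *Wnt11* the more upstream of the 2 windows held is shown.
Wnt2 (chr6:18030446-18030695, minus strand): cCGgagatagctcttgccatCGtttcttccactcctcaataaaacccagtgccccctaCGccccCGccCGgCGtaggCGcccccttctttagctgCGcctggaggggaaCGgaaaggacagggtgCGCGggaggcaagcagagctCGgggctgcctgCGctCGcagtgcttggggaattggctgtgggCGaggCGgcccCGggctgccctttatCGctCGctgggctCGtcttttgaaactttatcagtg
Wnt2b (chr3:104961710-104961959, minus strand): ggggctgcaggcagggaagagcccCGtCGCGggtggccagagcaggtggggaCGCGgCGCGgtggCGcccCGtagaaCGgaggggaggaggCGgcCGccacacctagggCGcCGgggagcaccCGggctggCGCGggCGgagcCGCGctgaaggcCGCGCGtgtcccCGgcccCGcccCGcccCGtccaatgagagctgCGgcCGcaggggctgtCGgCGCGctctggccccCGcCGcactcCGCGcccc
Wnt6 (chr1:74771642-74771891, plus strand): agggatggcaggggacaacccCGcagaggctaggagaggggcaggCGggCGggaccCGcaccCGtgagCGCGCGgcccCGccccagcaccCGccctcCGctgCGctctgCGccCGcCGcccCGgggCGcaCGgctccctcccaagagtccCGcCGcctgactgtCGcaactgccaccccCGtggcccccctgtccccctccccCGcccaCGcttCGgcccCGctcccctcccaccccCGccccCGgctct
Wnt9a (chr11:59306680-59306929, plus strand): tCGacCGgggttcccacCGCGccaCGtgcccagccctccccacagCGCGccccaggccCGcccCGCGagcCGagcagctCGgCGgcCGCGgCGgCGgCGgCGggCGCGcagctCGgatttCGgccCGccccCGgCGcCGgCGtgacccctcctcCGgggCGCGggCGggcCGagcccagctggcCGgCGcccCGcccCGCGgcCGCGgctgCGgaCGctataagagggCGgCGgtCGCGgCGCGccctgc
Wnt11 (chr7:98834862-98835111, plus strand): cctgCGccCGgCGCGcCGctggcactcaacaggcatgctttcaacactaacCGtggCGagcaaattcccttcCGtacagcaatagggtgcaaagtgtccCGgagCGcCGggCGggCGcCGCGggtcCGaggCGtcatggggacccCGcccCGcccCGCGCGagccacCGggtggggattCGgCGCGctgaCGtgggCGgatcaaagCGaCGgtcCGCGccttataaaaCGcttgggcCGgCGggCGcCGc
The windows of the ligands that fell held 20 CG dinucleotides in *Wnt2*, 36 in *Wnt2b*, 28 in *Wnt6* and 48 in *Wnt9a*, and the *Wnt11* window held 37. The second window of *Wnt11* held 16. The median was 6 over all 32851 windows of this length and 21 over the 35 windows of the Wnt genes, so ligands that fell and the ligand that rose both had CG-rich windows. The core recognition sequence of Tcf and Lef factors was searched on both strands as ctttgaa and ctttgat, which on opposite strands can share an end letter or a pair of them. It was found in the printed *Wnt11* window, as the reverse complement of ctttgat starting 51 bases before the transcript start, and in none of the other printed windows. Of all windows 7.48% held a match, and of the 35 windows 3 did (8.57%), the other two being in *Wnt5b* and *Dkk1*. These matches are descriptions of letters and not of binding.

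Both genes of ligand secretion were a little lower in STOSE cells. *Porcn*, the enzyme that attaches the lipid, read 7.0, 7.17 and 7.0 in M0505 cells and 6.39, 6.35 and 6.44 in STOSE cells. The lines did not overlap, and the log2 fold change was −0.66 (95% interval −0.82 to −0.50, adjusted p = 5.74e-05), under 2-fold. *Gpr177* (*Wls*), the carrier of Wnt proteins, had log2 means of 10.29 and 10.07 and a log2 fold change of −0.22 (95% interval −0.35 to −0.08, adjusted p = 0.0117).

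Of the 10 Frizzled genes, 4 were called lower and 0 higher, against 7.59% and 4.9% of all genes. At the adjusted p alone limma gave 6 lower and 0 higher (24.8% and 31.6% of all genes). *Fzd3*, a receptor known for axon guidance and planar polarity, differed most. It read 7.72, 8.04 and 7.99 on the log2 scale in M0505 cells and 4.08, 3.90 and 4.17 in STOSE cells, where every array lay under the background mark. The log2 fold change was −3.86 (standard error 0.10, adjusted p = 3.15e-08), and the fall was at least 9.04-fold with values under the mark raised to it.

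*Fzd4*, the receptor for Norrin as well as Wnt proteins and one needed for a working corpus luteum, read 10.22, 10.15 and 10.04 in M0505 cells and 7.32, 7.56 and 7.68 in STOSE cells. The STOSE arrays were far lower but stayed above the mark. Its log2 fold change was −2.62 (standard error 0.10, adjusted p = 2.06e-07), a 6.14-fold fall.

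*Fzd10* read 6.76, 6.79 and 6.62 against 5.32, 5.58 and 5.65, a log2 fold change of −1.20 (standard error 0.09, adjusted p = 1.13e-05). *Fzd2* read 8.43, 8.76 and 8.76 against 7.47, 7.67 and 7.66, a log2 fold change of −1.05 (standard error 0.10, adjusted p = 4.28e-05). Neither gene overlapped between the lines, but *Fzd2* lay so close to 2-fold that its call was lost without M0505 replicate 2 (−0.998), without M0505 replicate 3 (−0.998) or without STOSE replicate 1 (−0.98). The *Fzd2* call was also lost after a further quantile normalization (−0.97) and with the arrays centred on their medians (−0.85). *Fzd10* kept its call with the arrays centred, but only narrowly, at −1.004.

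*Fzd1* and *Fzd7* were lower by less than 2-fold. The log2 fold change of *Fzd1* was −0.67 (95% interval −0.82 to −0.52) and that of *Fzd7* was −0.53 (95% interval −0.69 to −0.38), with no overlap between the lines for either. Arrays of the lines overlapped for *Fzd5*, *Fzd6*, *Fzd8* and *Fzd9*, whose log2 fold changes were −0.17, −0.05, −0.05 and −0.04. The 95% interval was widest for *Fzd5*, at −0.55 to 0.20, and narrowest for *Fzd6*, at −0.18 to 0.08. The signs of these 4 log2 fold changes are not settled, since with the arrays centred on their medians they were 0.026, 0.15, 0.15 and 0.16.

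The Lrp co-receptors, which Frizzled receptors need for the β-catenin branch, differed little and in opposite directions. *Lrp6* had log2 values of 9.99, 10.08 and 10.05 in M0505 cells and 9.52, 9.59 and 9.51 in STOSE cells, a log2 fold change of −0.50 (95% interval −0.64 to −0.37, adjusted p = 0.000119). *Lrp5* had 9.12, 9.11 and 8.99 against 9.38, 9.28 and 9.29, a log2 fold change of 0.24 (95% interval 0.10 to 0.39, adjusted p = 0.0111). The arrays of the lines did not overlap for either gene, and neither difference reached 2-fold.

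*Ror1*, an alternative receptor with a tyrosine kinase-like domain, was the receptor called higher in STOSE cells. It read 8.31, 8.0 and 7.80 in M0505 cells and 9.37, 9.41 and 9.32 in STOSE cells on the log2 scale. The M0505 arrays spread widely, with replicate 1 the highest, and the STOSE arrays lay close together above them. The log2 fold change was 1.33 (standard error 0.12, adjusted p = 2.21e-05), a 2.51-fold rise that lay between 2.32-fold and 2.76-fold when single arrays were dropped. Its relative *Ror2* read 5.58, 5.69 and 5.62 against 5.78, 5.85 and 6.19, a log2 fold change of 0.31 (95% interval 0.06 to 0.55, adjusted p = 0.036). *Ryk* was bright in both lines, with log2 means of 10.65 and 10.60, overlapping arrays and an interval of −0.20 to 0.11 for the log2 fold change.

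**Figure D2:**
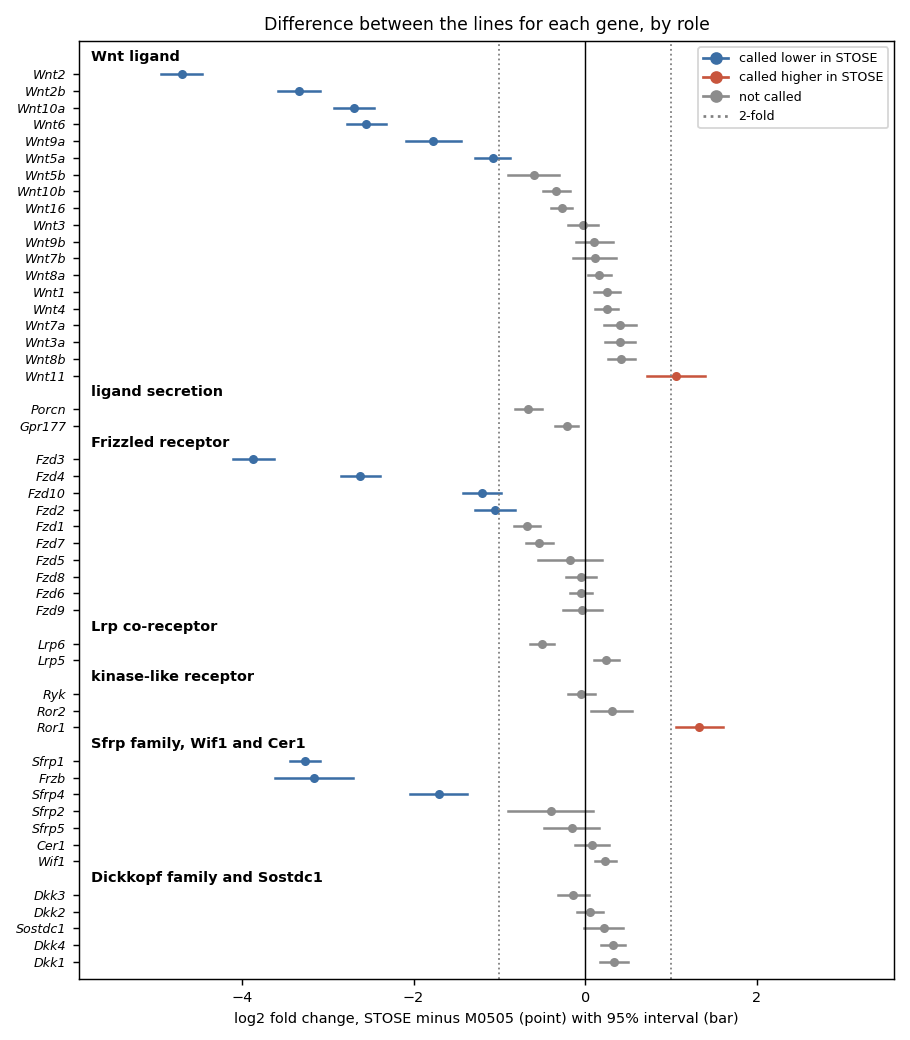
Log2 fold change (STOSE minus M0505) of each of the 48 genes by role, with the 95% interval from limma as a bar and dotted lines at 2-fold. The 13 genes called lower lie left of −1, from *Fzd2* at −1.05 to *Wnt2* at −4.70, and the 2 called higher are *Wnt11* at 1.06 and *Ror1* at 1.33.

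Of the 7 genes of the *Sfrp* family, *Wif1* and *Cer1*, 3 were called lower and 0 higher (7.59% and 4.9% of all genes). At the adjusted p alone limma gave 3 lower and 1 higher (24.8% and 31.6% of all genes), the higher one being *Wif1*, under the mark in both lines. Of the 5 genes of the Dickkopf family and *Sostdc1*, 0 were called in either direction by limma, against 12.5% of all genes. At the adjusted p alone 2 of these 5 were higher, or 40.0% against 31.6% of all genes, and the difference between the kinds of antagonist was not tested. *Sfrp1*, which encodes a secreted protein with a Frizzled-like domain, read 11.61, 11.85 and 11.82 in M0505 cells and 8.55, 8.47 and 8.47 in STOSE cells on the log2 scale. The fall in log2 value was 3.26 (standard error 0.08, adjusted p = 1.45e-08), and STOSE cells kept a mean of 8.49, well above the mark. *Frzb*, of the same family, read 6.38, 7.10 and 7.12 against 3.48, 3.81 and 3.83, with all STOSE arrays under the mark. Its log2 fold change was −3.16 (standard error 0.20, adjusted p = 2.93e-06), and the fall was at least 4.35-fold with values under the mark raised to it.

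*Sfrp4* read 6.36, 6.6 and 6.89 in M0505 cells and 4.77, 5.14 and 4.83 in STOSE cells, a log2 fold change of −1.70 (standard error 0.14, adjusted p = 1.77e-05). The lines did not overlap, and the STOSE arrays lay just above the mark. *Sfrp2* read 6.27, 7.15 and 6.95 against 6.65, 6.21 and 6.30, and its arrays overlapped because M0505 replicate 1 lay among the STOSE arrays. Its log2 fold change was −0.40 (95% interval −0.90 to 0.09, adjusted p = 0.146), and without that array it was −0.66. M0505 replicate 1 was the lowest M0505 array for all 5 *Sfrp* and *Frzb* genes, and for 23 of the 48 genes, as it was for 38.0% of all genes.

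*Sfrp5*, *Cer1* and *Wif1* had means under the background mark in both lines and log2 fold changes of −0.16, 0.08 and 0.24. *Dkk1*, the best known inhibitor of Lrp co-receptors, read 5.04, 4.92 and 5.14 in M0505 cells and 5.36, 5.33 and 5.40 in STOSE cells. The STOSE arrays were all higher, by a log2 fold change of 0.33 (95% interval 0.17 to 0.49, adjusted p = 0.00375), close to the mark in both lines. *Dkk4* showed a like log2 fold change of 0.33 (95% interval 0.19 to 0.47, adjusted p = 0.00193), from an M0505 mean just under the mark to a STOSE mean of 5.06. *Dkk2* and *Dkk3* overlapped between the lines, at 0.05 and −0.14, and *Sostdc1* lay under the mark in both. Among 1089 olfactory receptor genes, most of them under the mark, 82 (7.53%) were higher at the adjusted p alone and 15 (1.38%) lower.

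The median SD over the 48 genes was 0.09 in M0505 cells and 0.11 in STOSE cells on the log2 scale, against 0.08 in each line over all genes. It was 0.19 and 0.20 over the *Sfrp* family, *Wif1* and *Cer1*. The 33 genes that were not called had log2 fold changes from −0.67 (*Fzd1*) to 0.42 (*Wnt8b*), with a median size of 0.24. The 48 genes lie on 18 chromosomes, whose median log2 fold changes ran from −0.05 to 0.18, and subtracting the median of its chromosome from each gene left all 15 calls in place, *Wnt11* at 1.01.

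**Figure D3:**
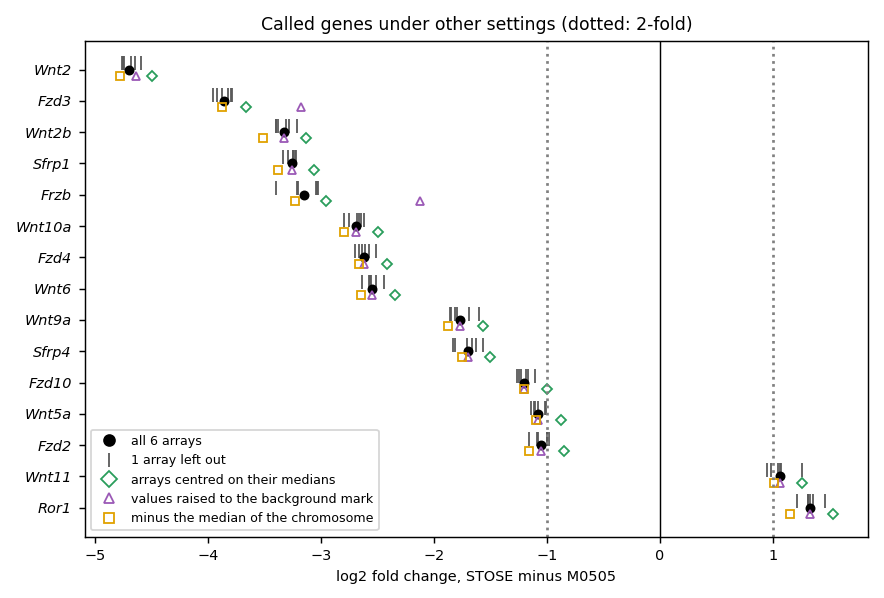
Log2 fold change (STOSE minus M0505) of the 15 called genes with all 6 arrays (black circle), with 1 array left out (vertical ticks) and under 3 other settings (open symbols), with dotted lines at 2-fold. *Fzd2*, *Wnt5a* and *Wnt11* cross the 2-fold line under some setting, and raising values to the background mark moves *Frzb* to −2.12 and *Fzd3* to −3.18.

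A list of 62 other genes of the pathway was read for context, of which 60 were on the array. Of the 60, 5 were called higher and 11 lower in STOSE cells (against 4.9% and 7.59% of all genes), with a median log2 fold change of −0.08. At the adjusted p alone 17 were higher (28.3%, against 31.6% of all genes) and 26 lower (43.3%, against 24.8%). Outside the cell, R-spondins strengthen Wnt signaling through Lgr receptors. *Rspo1* read 10.18, 10.56 and 10.49 in M0505 cells and 8.89, 9.38 and 9.48 in STOSE cells, a log2 fold change of −1.16 (standard error 0.16), whereas *Rspo3* read 4.56, 4.44 and 4.33 against 5.81, 6.04 and 6.06, a rise of at least 2.34-fold with values under the mark raised to it. Arrays did not overlap for either gene, whereas they did for *Rspo2* and *Rspo4*, which were not called (log2 fold changes of −0.0039 and 0.25). The receptor gene *Lgr5* was lower, at a log2 fold change of −2.78 (standard error 0.11).

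Of the other extracellular modifiers, *Notum*, whose product removes the lipid from Wnt proteins, was lower (log2 fold change −1.92), as were the glypican gene *Gpc4* (−2.15) and *Reck* (−1.39). *Igfbp4*, whose product binds insulin-like growth factors and can inhibit Wnt signaling, was higher (5.07). Inside the cell *Ctnnb1*, which encodes β-catenin, had log2 means of 11.17 and 11.13 and was not called (adjusted p = 0.499). The feedback gene *Axin2* was lower, reading 9.89, 9.85 and 9.67 in M0505 cells and 6.22, 6.24 and 5.92 in STOSE cells, a log2 fold change of −3.68 (standard error 0.10). Its arrays were far apart between the lines.

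The dishevelled gene *Dvl1* was higher (log2 fold change 1.07). Of the nuclear factors, *Lef1* (−1.79), *Tcf7l1* (−1.44) and *Pygo1* (−2.09) were lower and the corepressor gene *Tle1* was higher (1.17). Of the planar polarity genes, the cadherin gene *Celsr1* (−2.94) and *Dact1* (−2.39) were lower and *Prickle2*, under the mark in M0505 cells, was at least 3.70-fold higher.

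**Figure D4:**
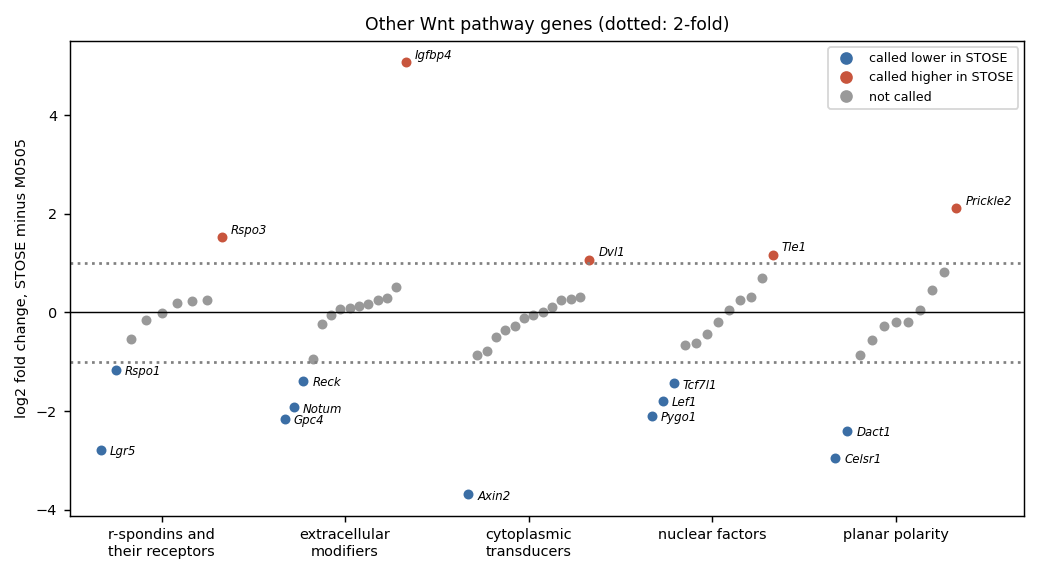
Log2 fold change (STOSE minus M0505) of 60 other Wnt pathway genes in 5 lists, 1 point a gene, with dotted lines at 2-fold and the called genes named. *Axin2* at −3.68 and *Igfbp4* at 5.07 are the extremes, and both directions occur in every list.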

How the data were processed

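RNA of 3 M0505 and 3 STOSE samples was measured on Mouse Gene 1.0 ST arrays of Affymetrix. The authors processed the arrays by RMA in Affymetrix Expression Console, per the labels, and deposited log2 values, 1 column per array. RMA subtracts background and forces the arrays to a common distribution before the probes are combined, so only differences relative to the other genes remain. The version, annotation release and genome build are not given in the sources used here. The line averages and the fold changes that the authors computed stand in the same table and were not used.

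The 23530 of 28944 probe sets with a gene symbol were reduced to the probe set with the highest mean for each of 20405 genes. A linear model of the line alone was fitted per gene (limma 3.58.1, lmFit and eBayes; R 4.3.3), and p-values were adjusted across all genes by the Benjamini-Hochberg method. The calling code was tested on simulated data. The 48 genes, the other lists and the background mark were chosen with earlier results of these data known. Chromosomes came from RefSeq genes of GRCm38.p6 by symbol, for 97.5% of genes. All 48 genes were tested, genes called were given array by array, as were some others, chosen after their values were seen, and the rest were given by ranges or means. Arrays have no read depth, and their number limits the precision: 3 against 3 cannot give an exact permutation p below 0.1. No date or batch is given. Alternatives were other normalizations, filters, tests, thresholds, the replicate number as a block, and each array left out.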

Additional observations from a re-analysis of the deposited data

How the results depend on the processing

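Of the 15 calls, 12 held under every alternative that kept the thresholds and tested the gene, and none changed direction, the exceptions being *Fzd2*, *Wnt5a* and *Wnt11*, which fell under 2-fold as given above. Leaving out the dimmest 25% or 50% of genes kept 44 and 24 of the 48 genes. With each array left out, the count of the 48 genes called higher ran from 1 to 2 and the count called lower from 12 to 13. The shares of all genes ran from 4.68% to 5.22% higher and from 7.39% to 7.8% lower. By the adjusted p alone the counts were 13 higher and 21 lower, against 31.6% and 24.8% of all genes. At 4-fold they were 0 higher and 8 lower, against 0.912% higher and 2.49% lower of all genes. For the other pathway genes the counts were 17 higher and 26 lower by the adjusted p alone (31.6% and 24.8% of all genes). They were 17 lower at 1.5-fold (14.1% of all genes) and 2 higher and 6 lower at 4-fold (0.912% and 2.49%). Without the dimmest 50% of genes 3 were higher (7.6% of all genes kept), and after subtracting the chromosome median 3 were higher (3.9% of all genes). Signs turned for genes near 0. After a further quantile normalization *Dkk2* was at −0.0080, *Fzd8* at 0.13 and *Fzd9* at 0.014. Centring the arrays on their medians moved all genes by 0.20 on the log2 scale. It changed the share of lower calls among all called genes from 60.8% to 44.5%. Of the 48 genes, 2 were then called higher and 11 lower, against 7.18% and 5.77% of all genes. Under this setting the signs of *Dkk3* (0.061), *Fzd5* (0.026), *Fzd6* (0.15), *Fzd8* (0.15), *Fzd9* (0.16), *Ryk* (0.15), *Sfrp5* (0.043) and *Wnt3* (0.17) turned. With each array left out *Wnt3* ran from −0.088 to 0.019, *Cer1* from −0.0099 to 0.15 and *Fzd9* from −0.13 to 0.056, and *Wnt3* was at 0.00297 with values raised to the mark. After subtracting the chromosome median *Cer1* was at −0.10, *Dkk2* at −0.13, *Wnt7b* at −0.058 and *Wnt9b* at −0.0054. The causes were not tested. Samples share only a replicate number, with correlations of their deviations of 0.26, 0.04 and 0.25 for numbers 1 to 3, and STOSE replicate 2 correlated best with M0505 replicate 3 (0.12). With the replicate number as a block the counts stayed at 2 higher and 13 lower among the 48 genes, and were 1001 and 1548 among all genes against 1000 and 1548.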
